A study of Mus musculus with 9 samples.

Results

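The comparison described here is that of colon RNA from mice with dextran sulfate sodium (DSS) colitis that received the peptide GsMTx4 against colon RNA from mice with DSS colitis that received solvent. It compares 6 of the 9 libraries of the study, 3 per group. All genes with at least 1 FPKM (fragments scaled to transcript length and library size) in at least 3 of those 6 libraries were tested. This left 13669 of 35315 genes. All mice were 8-week-old wild-type C57BL/6J. The DSS group drank water with 2.5% DSS for 7 days and was injected intravenously with solvent on days 2, 4 and 6. The GsMTx4 group drank the same DSS and was injected on the same days with 10 mg/kg GsMTx4. The remaining 3 libraries, the Control group, came from mice on normal drinking water for which no injection is listed. Control levels are given below beside some genes as a description, and they belong to no test of their own. All 9 libraries entered the fit, where Control served only to estimate the spread behind each p-value. Whether each library is from a mouse of its own is not stated in the labels, and p-values therefore measure only the spread between these samples. No group with GsMTx4 and without DSS was analysed here, so the comparison is within colitis only.

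GsMTx4 is a peptide from spider venom that inhibits cationic channels opened by membrane stretch, Piezo1 among them. DSS in drinking water injures the epithelium of the colon, after which bacteria reach the mucosa, neutrophils and monocytes enter it, and the remaining epithelial cells spread and divide over the wound. Such tissue is read in bulk as a mixture of epithelium, immune cells, fibroblasts, vessels and muscle. In bulk tissue, fewer cells of a type and less RNA per cell of that type cannot be told apart.

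The 9 libraries had summed values of 349125 to 440935 FPKM and 12830 to 14036 genes at 1 FPKM or more, so that they did not differ much in breadth. On the first principal component of the tested genes, which held 47.1% of the variance of the 6 libraries, the DSS libraries stood at -25.5, -28.7 and -44.3 and the GsMTx4 libraries at 19.5, 34.9 and 44.0. The second component (21.4%) set DSS 2 (-31.1) and GsMTx4 3 (-32.4) apart from the other 4 libraries. GsMTx4 3 also had the largest summed FPKM and mt-Co1, a mitochondrially encoded subunit of cytochrome oxidase, at 22448 FPKM. The colon label was met in all 6 libraries by Cdx1, an intestinal transcription factor, which stood at 101, 99.9 and 77.8 FPKM in the DSS libraries and 139, 165 and 164 FPKM in the GsMTx4 libraries. The target of the peptide was measured but low: Piezo1 stood at 6.57, 3.67 and 8.46 FPKM in the DSS libraries and 5.4, 4.64 and 2.11 FPKM in the GsMTx4 libraries, a log2 difference of -0.52 ± 0.31 that did not pass (adjusted p = 0.287).

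With GsMTx4, 956 genes rose (6.99% of the 13669 tested) and 840 fell (6.15%), by limma on log2(FPKM + 1) at an adjusted p below 0.05. Both directions together made 13.1%. The counts of list members below are to be read beside these shares of all tested genes. The change reached 2-fold in 312 of the rises and 335 of the falls. All fold changes here are log2 differences on the log2(FPKM + 1) scale, GsMTx4 minus DSS, with their standard error, and on this scale low genes show less than their full change. The median over all tested genes was 0.06. The 3 GsMTx4 libraries lay wholly above or wholly below the 3 DSS libraries in 4190 genes (30.7%), higher in 17.4% and lower in 13.2%. Of the genes that passed, 1793 of 1796 were separated in this way. The balance of rises and falls moved with the scaling: with median-of-ratios factors 794 genes were higher and 1094 lower, so that 42.1% of the calls were rises against 53.2% here. Leaving out GsMTx4 2 left 334 rises and 320 falls, and leaving out DSS 3 left 553 and 424. Of the 1796 calls, 533 held in every fit that left out 1 library. Of the same calls, 573 passed in each of 11 other settings that tested them. TPM rescaling kept 1201 of them, the replicate number as a block 1039 and no level filter 943. The 6 libraries alone kept 621. There, fewer residual degrees of freedom are left and the more uniform Control libraries do not enter the spread. Many calls that ended under at least 1 of the settings above, and many list counts that moved by over 1.5 times, are given with each gene group. Others are not reported here. Il1r2, Prg2, Angptl4, Cidec, Lpl, Reg3g and Ret, described below, had no GsMTx4 library at 1 FPKM, so they passed the level filter only through the group where they were high and could not be tested when a DSS library was left out. The same held in the other direction for Alb, Axin2, Cbs and most plasma protein genes when a GsMTx4 library was left out.

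**Figure D1:**
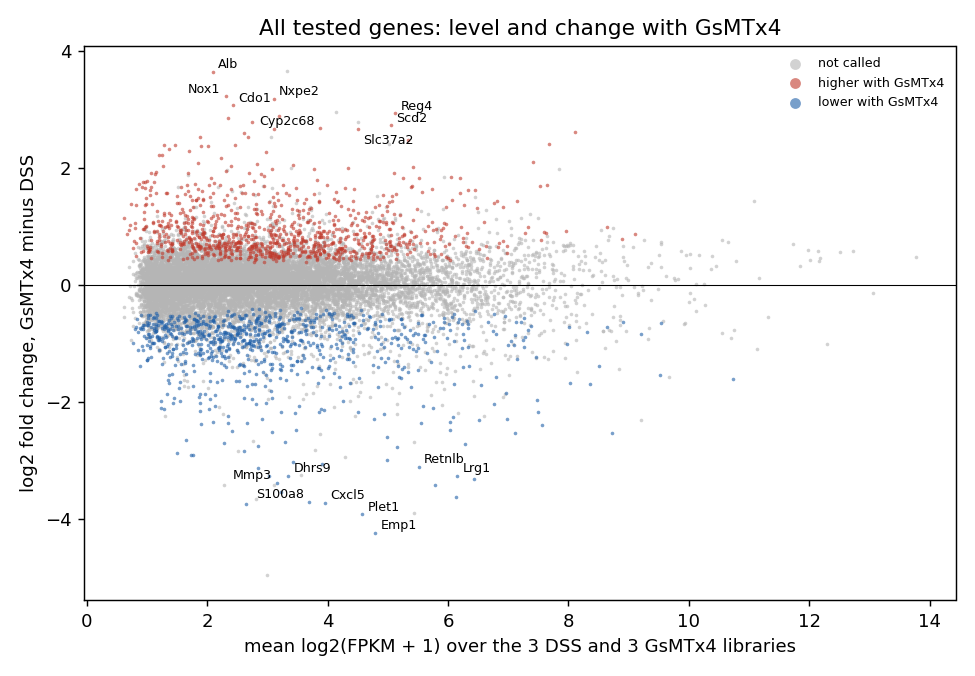
Log2 fold change (GsMTx4 minus DSS, on the log2(FPKM + 1) scale) of each of the 13669 tested genes against its mean log2(FPKM + 1) over the 6 libraries, with rises in red and falls in blue. The 956 rises and 840 falls spread over much of the range of levels, with Alb at 3.64 near the top and Emp1 at -4.24 near the bottom.

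The 8 largest falls were those of Emp1, Plet1, Cxcl5, S100a8, Mmp3, Dhrs9, Lrg1 and Retnlb. Emp1, an epithelial membrane protein (chromosome 6, 135362545 to 135383173 in GRCm38), stood at 72.6, 138 and 169 FPKM in the DSS libraries and 6.44, 5.61 and 4.26 FPKM in the GsMTx4 libraries. Its log2 fold change was -4.24 ± 0.29 (adjusted p = 0.00034), and the 3 GsMTx4 values were close together and far below the lowest DSS value. Plet1 (chromosome 9, 50494525 to 50505482), a surface protein of placental and regenerating epithelium, stood at 112, 54 and 126 FPKM in the DSS libraries and 13.1, 4.57 and 1.92 FPKM in the GsMTx4 libraries, a change of -3.92 ± 0.52 (adjusted p = 0.00344). Cxcl5 (chromosome 5, 90759360 to 90761624), an epithelial chemokine for neutrophils, stood at 47.3, 61.5 and 57.4 FPKM in the DSS libraries and 10.2, 3.32 and 0.573 FPKM in the GsMTx4 libraries. Its change was -3.73 ± 0.56 (adjusted p = 0.00551), with the DSS libraries alike and the GsMTx4 libraries far apart from each other. Under another setting the calls on Mmp3 and Lrg1 ended (adjusted p = 0.0575 to 0.0784).

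S100a8 (chromosome 3, 90668978 to 90670035), a subunit of the neutrophil protein calprotectin, stood at 28.1, 40.5 and 83.2 FPKM in the DSS libraries and 11.2, 0.996 and 0.893 FPKM in the GsMTx4 libraries and fell by 3.70 ± 0.66 (adjusted p = 0.0103). GsMTx4 1 was far above the other GsMTx4 libraries, and still below every DSS library. Retnlb, a goblet cell peptide induced in gut inflammation, went from 53.8, 277 and 157 FPKM in DSS to 15.5, 20.7 and 9.5 FPKM with GsMTx4 (-3.11 ± 0.51, adjusted p = 0.00739). Dhrs9, an enzyme that makes retinaldehyde from retinol, went from 19.9, 31.4 and 45.1 to 2.81, 4.43 and 0.703 FPKM (-3.26 ± 0.41, adjusted p = 0.00274). These falls, with those of Emp1, Plet1 and Cxcl5, passed in each fit that left out 1 library. Mmp3, a stromal metalloproteinase, changed by -3.38 ± 0.81 (adjusted p = 0.0283), and Lrg1, a glycoprotein of the acute phase, by -3.26 ± 0.76 (adjusted p = 0.0252). Mmp3 did not pass when DSS 2, DSS 3, GsMTx4 2 or GsMTx4 3 was left out (adjusted p = 0.0662 to 0.0987), nor Lrg1 when DSS 1, DSS 2 or GsMTx4 2 was left out (adjusted p = 0.0588 to 0.0701).

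The 8 largest rises were those of Alb, Nox1, Nxpe2, Cdo1, Reg4, Scd2, Cyp2c68 and Slc37a2. Alb, which encodes serum albumin and is made by hepatocytes (chromosome 5, 90460897 to 90476602), stood at 0.0719, 0.479 and 0.111 FPKM in the DSS libraries and 13.2, 14.4 and 14.6 FPKM in the GsMTx4 libraries, and in Control at 1.22, 0.825 and 0.753 FPKM. Its change was 3.64 ± 0.16 (adjusted p = 3.81e-05), and it had the smallest standard error of the 16 genes named for their size. No DSS library of Alb reached 1 FPKM, so Alb passed the level filter only through the group in which it was high. On the log2(FPKM + 1) scale, values near 0 such as those of Alb in DSS spread little. Nox1, the NADPH oxidase of the colon epithelium, stood at 1.67, 0.375 and 0.157 FPKM in the DSS libraries and 7.95, 32.2 and 10.6 FPKM in the GsMTx4 libraries, a change of 3.22 ± 0.47 (adjusted p = 0.00484), with GsMTx4 2 highest. Nxpe2, a member of the neurexophilin and PC-esterase family, went from 2.78, 1.15 and 1.83 to 11.9, 41 and 31 FPKM (3.18 ± 0.40, adjusted p = 0.00274). Cdo1, cysteine dioxygenase, went from 1.33, 0.458 and 0.868 to 6.67, 19.1 and 23.2 FPKM (3.07 ± 0.38, adjusted p = 0.00274). The call on Reg4 ended in at least 1 of the other settings (adjusted p = 0.0501).

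Scd2, a stearoyl-CoA desaturase (chromosome 19, 44293674 to 44306864), stood at 13.9, 10.3 and 11.7 FPKM in the DSS libraries and 92.6, 102 and 63.7 FPKM in the GsMTx4 libraries and rose by 2.73 ± 0.34 (adjusted p = 0.00274). The 3 DSS libraries were within a narrow range and the lowest GsMTx4 library was several times above the highest of them. Cyp2c68, a cytochrome P450, went from 6.03, 3.57 and 5.03 to 26.5, 31.7 and 55.7 FPKM (2.68 ± 0.27, adjusted p = 0.00136). Slc37a2, a sugar-phosphate exchanger, went from 11.7, 5.72 and 7.59 to 78.9, 54.3 and 40.9 FPKM (2.66 ± 0.35, adjusted p = 0.00344). Reg4, a lectin of secretory cells, went from 21.5, 13.9 and 4.91 to 38.4, 127 and 174 FPKM (2.93 ± 0.59, adjusted p = 0.0149), and did not pass when GsMTx4 2 was left out (adjusted p = 0.0627). The 6 rises other than Alb and Reg4 passed in each fit that left out 1 library.

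**Figure D2:**
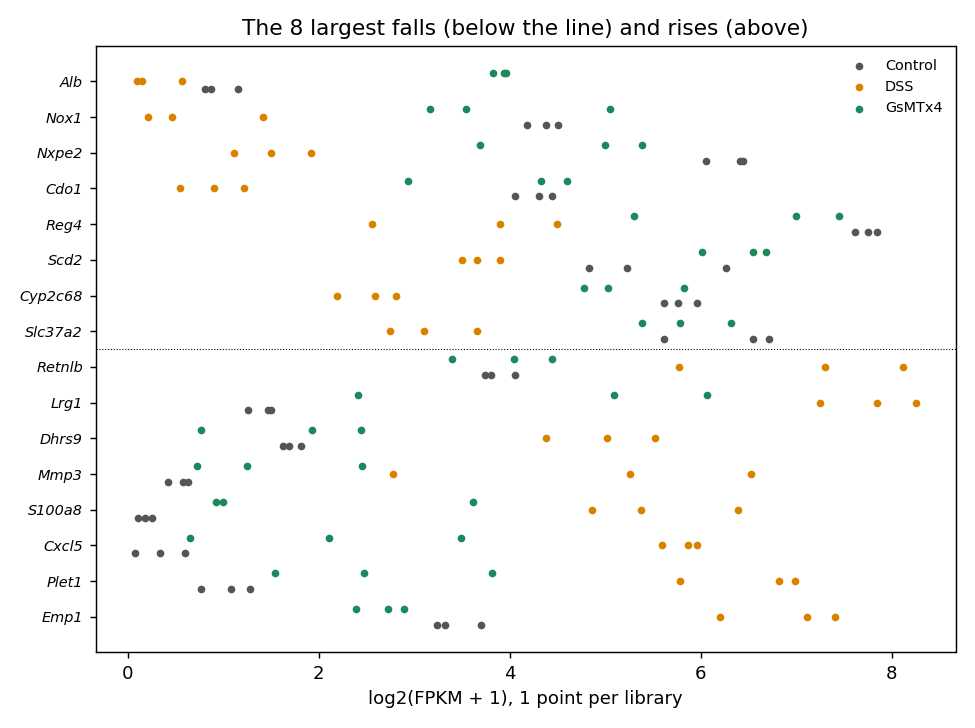
log2(FPKM + 1) in each of the 9 libraries for the 8 largest rises (above the line) and the 8 largest falls (below it), 1 point per library, coloured by group. The 16 genes were chosen among those without overlap between DSS and GsMTx4, so that this separation comes from the choice. The GsMTx4 points of Cxcl5 lie far apart and those of Alb close together.

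Neutrophils are the first leukocytes to enter injured mucosa. Of 18 neutrophil markers listed, 11 were tested, 6 fell and none rose, with a median of -1.47 against 0.06 for all genes. Mpo, Camp, Ngp, Mmp8 and Mmp9, which encode granule contents, Cxcr2 and Trem1 did not reach the filter. Beside S100a8, the decoy receptor Il1r2 fell from 3.36, 3.9 and 8.24 FPKM to 0.626, 0.342 and 0.484 FPKM (-1.98 ± 0.26, adjusted p = 0.00315), and the lectin receptor Clec4d changed by -1.47 ± 0.29 (adjusted p = 0.0146). Clec4d did not pass when GsMTx4 2 was left out (adjusted p = 0.0598). The partner of S100a8, S100a9, stood at 22.8, 37.1 and 172 FPKM in the DSS libraries and 25.3, 4.56 and 1.36 FPKM in the GsMTx4 libraries, with a difference of -2.94 ± 0.89 that did not pass (adjusted p = 0.0597) and that passed without GsMTx4 1 (adjusted p = 0.0182). Ly6g, the surface marker of mouse neutrophils, differed by -0.79 without passing (adjusted p = 0.146). The summed FPKM of the 18 markers was 677 to 1192 in DSS, 332 to 573 with GsMTx4 and 121 to 130.4 in Control. Most of this sum came from markers other than S100a8, S100a9 and Il1r2. In GsMTx4 3, where the sum was 573 FPKM, these stood at 0.893, 1.36 and 0.484 FPKM. The sum therefore does not follow the levels of these genes. The number of falls was 3 with Control 2, Control 3 or GsMTx4 3 left out and 2 with DSS 2 or GsMTx4 2 left out. The neutrophil falls numbered 3 without a level filter, with the 6 libraries alone or with the replicate block and 1 with a mean of 5 FPKM required.

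Chemokines are secreted proteins that draw leukocytes into tissue, and each receptor class draws its own cells. Of 26 tested, 6 fell and Ccl28 rose (median -0.51). Cxcl1, which with Cxcl5 attracts neutrophils through Cxcr2, stood at 5.82, 4.35 and 8.67 FPKM in the DSS libraries and 1.94, 0.78 and 0.254 FPKM in the GsMTx4 libraries and changed by -1.92 ± 0.31 (adjusted p = 0.00719). Cxcl13, which attracts B cells to lymphoid follicles, went from 188, 244 and 77.9 to 36.4, 24.2 and 21.7 FPKM (-2.47 ± 0.42, adjusted p = 0.00804). Ccl17 and Ccl22, ligands of Ccr4 on T cells, changed by -1.53 and -1.23, and Ccl21a, which guides cells along lymphatics, by -1.02. The ligands of monocytes and of interferon-activated T cells did not pass in either direction: Ccl2 differed by 0.10, Ccl7 by 0.26, Cxcl9 by 1.01 and Cxcl10 by 1.11. Ccl28, an epithelial chemokine for IgA-producing cells, rose from 23, 25.1 and 22.8 to 35.7, 38.9 and 43.1 FPKM (0.71 ± 0.13, adjusted p = 0.0115). Ccl22 did not pass when DSS 1, DSS 3, GsMTx4 2 or GsMTx4 3 was left out (adjusted p = 0.0623 to 0.103), nor Ccl21a when Control 2, DSS 2, DSS 3 or GsMTx4 2 was left out (adjusted p = 0.0515 to 0.105). The chemokine falls numbered 3 with a mean of 5 FPKM required. At least 1 other setting ended the calls on Ccl17, Ccl22 and Ccl21a (adjusted p = 0.0541 to 0.0837).

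The promoter of Cxcl1 (250 bases before the start, chr5:90890995-90891244, plus strand, RefSeq on GRCm38.p6) is shown because it was the only promoter among 5 of the falling chemokines with sequence to hold the NF-kB element GGANTTTCC, searched on both strands. The match, in capitals, lies 70 to 62 bases before the start. The element was in 112 of the 9512 tested genes with a promoter sequence (1.18%). Among all 19 tested chemokines with sequence, 3 held it (15.8%): Cxcl1, and Cxcl2 and Cxcl10, which did not pass.
Cxcl1: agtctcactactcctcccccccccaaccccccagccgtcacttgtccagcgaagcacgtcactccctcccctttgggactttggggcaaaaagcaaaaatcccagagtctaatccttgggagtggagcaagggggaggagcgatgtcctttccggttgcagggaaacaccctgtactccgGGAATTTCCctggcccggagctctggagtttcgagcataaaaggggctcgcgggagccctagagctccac

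Cytokines, the signals exchanged by immune and tissue cells, were measured in part: of 30 listed, 14 did not reach the filter, 16 were tested, and 4 fell (median -0.39). Tgfb1, a brake on inflammation and a driver of scarring, fell from 9.64, 5.86 and 11 to 3.54, 2.83 and 3.23 FPKM (-1.19 ± 0.20, adjusted p = 0.00871). Il1b stood at 8.19, 13.8 and 56.3 FPKM in the DSS libraries and 11.9, 8.09 and 10.7 FPKM in the GsMTx4 libraries, where only DSS 3 was far above the rest, and its difference of -0.84 did not pass (adjusted p = 0.334). Tnf stood at 5.5, 9.42 and 15.8 FPKM in the DSS libraries and 11.1, 4.72 and 7.8 FPKM in the GsMTx4 libraries, and the groups overlapped (-0.30, adjusted p = 0.605). Il6 was low, with 0.179, 0.236 and 1.35 FPKM in the DSS libraries and 0.104, 0.081 and 0 FPKM in the GsMTx4 libraries, and was not tested. Il33, an epithelial and stromal alarmin, Ltb, a lymphotoxin, and Il22, which acts on epithelium, changed by -1.65, -1.49 and -1.5. Il33 did not pass when any library but DSS 1 was left out (adjusted p = 0.0523 to 0.115), Ltb when any library but DSS 2 or GsMTx4 3 was left out (adjusted p = 0.052 to 0.128), and Il22 when any library but GsMTx4 2 was left out (adjusted p = 0.051 to 0.127). The cytokine falls numbered 2 with a mean of 5 FPKM required or with the replicate block and 1 without a level filter or with the 6 libraries alone. Of the calls named here, those on Il33, Ltb and Il22 ended under another setting (adjusted p = 0.0515 to 0.126).

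On the receiving side, 6 of 24 tested cytokine receptors fell and none rose (median -0.45). Il4ra, shared by the receptors of IL-4 and IL-13, fell from 21.7, 27.3 and 31.5 to 12.6, 11.8 and 10.9 FPKM (-1.11 ± 0.15, adjusted p = 0.00344). Il1r1, the signalling receptor of IL-1, changed by -1.48 ± 0.29 (adjusted p = 0.0139), and Csf1r and Csf2ra, growth factor receptors of macrophages and granulocytes, by -0.93 and -1.35. Of 44 tested genes that sense microbes or serve NF-kB and inflammasomes, 3 fell and 3 rose (median -0.21). Each count was 6.82%, near the 6.99% of all tested genes that rose and the 6.15% that fell. Vcam1, an endothelial adhesion molecule and a target of NF-kB, fell from 14.2, 14.6 and 16.2 to 5.25, 4.28 and 3.55 FPKM (-1.59 ± 0.20, adjusted p = 0.00274), and Nfkbib, an inhibitor of NF-kB, changed by -0.60 ± 0.11 (adjusted p = 0.0109). Pycard, the adaptor of inflammasomes, rose by 0.74 ± 0.13 (adjusted p = 0.00966). The subunits Nfkb1, Nfkb2, Rela and Relb differed by -0.24, -0.55, -0.43 and -0.17, and none passed. Irak3, Tlr1 and Nlrp6 also passed, at -0.61, 0.44 and 0.88; Irak3 did not when any library but DSS 2 or GsMTx4 1 was left out (adjusted p = 0.0656 to 0.107), Tlr1 when any library but GsMTx4 3 was left out (adjusted p = 0.0531 to 0.102), and Nlrp6 when any library but DSS 2 or GsMTx4 2 was left out (adjusted p = 0.0559 to 0.0819). The receptor falls numbered 3 with the 6 libraries alone. The NF-kB list rises numbered 1 with median-of-ratios scaling or with the replicate block and 0 with the 6 libraries alone. The NF-kB list falls numbered 1 with the 6 libraries alone and 6 with GsMTx4 1 left out. Only 1 of these genes rose with Control 1, Control 2, Control 3, DSS 1, DSS 3 or GsMTx4 1 left out. Under another setting the calls on Csf1r, Nfkbib, Pycard, Irak3, Tlr1 and Nlrp6 ended (adjusted p = 0.0517 to 0.125).

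Interferon-response genes, which encode antiviral effectors and their regulators, make up much of the response to viral RNA and DNA. Of 36 tested, 34 had a log2 fold change above 0, with a median of 0.59 against 0.06 for all genes. Only 3 passed (8.33%, near the 6.99% of all tested genes that rose). Cmpk2, a mitochondrial nucleotide kinase, went from 2.87, 4.94 and 6.11 to 8.52, 10.4 and 18 FPKM (1.22 ± 0.29, adjusted p = 0.0279). Stat2, a subunit of the interferon-activated factor ISGF3, went from 14, 16.7 and 20.1 to 24.9, 28.5 and 23.6 FPKM (0.58 ± 0.16, adjusted p = 0.042), and the oligoadenylate synthetase-like gene Oasl1 changed by 1.03 ± 0.29 (adjusted p = 0.0486). Ifit1 differed by 1.52, Rsad2 by 1.33 and Isg15 by 1.1, and none of these passed. The summed FPKM of the 36 genes was 778, 1792 and 1504 in DSS, 1592, 1734 and 3094 with GsMTx4, and 2921 to 3155 in Control, so that the DSS and GsMTx4 libraries overlapped. The number of rises was 5 with DSS 3 left out, 1 with Control 1, Control 3 or DSS 2 left out and 0 with DSS 1, GsMTx4 2 or GsMTx4 3 left out. Cmpk2 did not pass when DSS 1, DSS 2, GsMTx4 2 or GsMTx4 3 was left out (adjusted p = 0.0543 to 0.0715), Stat2 when any library but DSS 3 was left out (adjusted p = 0.0532 to 0.138), and Oasl1 when any library but Control 2 was left out (adjusted p = 0.0535 to 0.128). The interferon response rises numbered 5 with the replicate block, 1 with median-of-ratios scaling and 0 without a level filter or with the 6 libraries alone. The calls on Cmpk2, Stat2 and Oasl1 ended in at least 1 of the other settings (adjusted p = 0.0502 to 0.111).

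The interferon element GAAANNGAA, searched on both strands, was in 15 of the 26 interferon-list promoters with sequence (57.7%) and in 6.52% of all tested promoters. The promoter of Stat2 (chr10:128270248-128270497, plus strand, RefSeq on GRCm38.p6) is shown because Stat2 was the only one of the 3 genes that passed to hold a match. The match, in capitals and on the other strand, lies 221 to 213 bases before the start.
Stat2: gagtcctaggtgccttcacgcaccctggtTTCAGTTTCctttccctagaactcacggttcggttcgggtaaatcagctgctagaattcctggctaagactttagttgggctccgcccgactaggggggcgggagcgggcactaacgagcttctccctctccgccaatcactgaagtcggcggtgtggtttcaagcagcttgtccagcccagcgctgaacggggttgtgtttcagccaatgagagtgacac

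Monocytes enter the inflamed colon and become macrophages. Of 18 tested monocyte and macrophage markers, 4 fell and none rose (median -0.64). Csf1r, the macrophage growth factor receptor counted above, fell from 24.6, 20.6 and 28.4 to 15.2, 12.8 and 9.52 FPKM (-0.93 ± 0.18, adjusted p = 0.0134) and passed in each fit that left out 1 library but not with the 6 libraries alone (adjusted p = 0.0545), while the macrophage markers Adgre1 and Itgam differed by 0.03 and -0.20 without passing. Cd68, a lysosomal protein, and Fcgr3, an Fc receptor, changed by -0.82 and -1.13. The summed FPKM of the 20 listed markers was 985 to 1317 in DSS, 601 to 781 with GsMTx4 and 569 to 635 in Control. Cd68 did not pass when any library but DSS 1 or GsMTx4 1 was left out (adjusted p = 0.0613 to 0.139), nor Fcgr3 when any library but Control 1, DSS 1 or GsMTx4 3 was left out (adjusted p = 0.0621 to 0.148); the number of falls was 2 with Control 3, DSS 2, DSS 3 or GsMTx4 2 left out. The monocyte and macrophage falls numbered 2 without a level filter. At least 1 other setting ended the calls on Cd68 and Fcgr3 (adjusted p = 0.0518 to 0.108).

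Of 15 tested B and plasma cell markers, each had a log2 fold change below 0 and 5 fell (median -0.88): Mzb1 and Derl3, which serve antibody secretion, at -1.3 and -1.11, and the factors Irf4, Prdm1 and Xbp1 at -0.93, -0.72 and -0.66. The number of falls was 3 with Control 1, DSS 1 or GsMTx4 1 left out, 2 with GsMTx4 3 left out, 1 with DSS 3 left out and 0 with GsMTx4 2 left out. Mzb1 did not pass when GsMTx4 2 was left out (adjusted p = 0.0874), Derl3 when any library but Control 2, Control 3 or DSS 2 was left out (adjusted p = 0.0507 to 0.113), Irf4 when DSS 1, DSS 3, GsMTx4 1, GsMTx4 2 or GsMTx4 3 was left out (adjusted p = 0.0551 to 0.086), Prdm1 when DSS 3 or GsMTx4 2 was left out (adjusted p = 0.0633 to 0.0793), and Xbp1 when any library but DSS 1 or GsMTx4 1 was left out (adjusted p = 0.0682 to 0.115). Of 17 tested T, NK and innate lymphoid markers, 11.8% fell: Klrd1, an NK receptor subunit, and Il7r, by 1.22 and 1.01 (adjusted p = 0.0103 and 0.0109). The T cell receptor subunits Cd3e, Cd3d and Cd3g differed by -0.39, -0.41 and -0.32 without passing. The eosinophil granule gene Prg2 went from 2.94, 4.16 and 5.39 to 0.968, 0.623 and 0.888 FPKM (-1.48 ± 0.22, adjusted p = 0.00486). None of 10 MHC class II pathway genes passed (median -0.57); without GsMTx4 3, 3 fell. In the class I pathway H2-K1 changed by -0.62, and did not pass when any library but DSS 1 was left out (adjusted p = 0.0563 to 0.125). The B and plasma cell falls numbered 3 with the replicate block, 1 without a level filter and 0 with the 6 libraries alone. Of the calls named here, those on Mzb1, Derl3, Irf4, Prdm1, Xbp1 and H2-K1 ended under another setting (adjusted p = 0.0514 to 0.153).

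**Figure D3:**
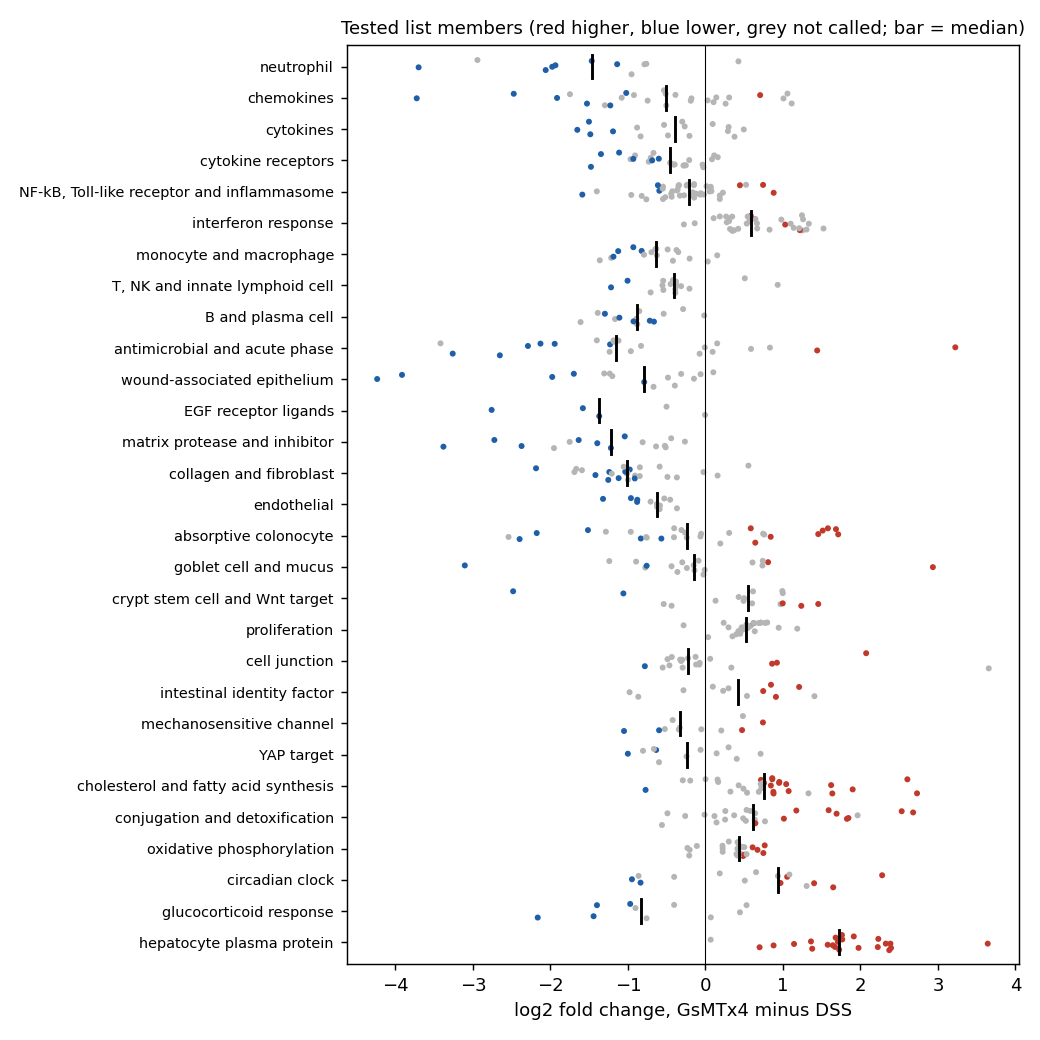
Log2 fold change (GsMTx4 minus DSS) of each tested member of the main gene lists, 1 row per list, with rises in red, falls in blue, the list's median as a bar and a line at 0. The hepatocyte plasma protein and cholesterol and fatty acid synthesis rows lie mostly to the right of 0, and the EGF receptor ligand, matrix protease and neutrophil rows mostly to the left.

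Of 22 tested antimicrobial and acute phase genes, most of which encode secreted defence proteins, 6 fell and 2 rose (median -1.15). Lcn2, the iron-scavenging lipocalin used as a marker of colitis, stood at 7.22, 13.6 and 17.6 FPKM in the DSS libraries and 3.18, 1.99 and 2.13 FPKM in the GsMTx4 libraries and changed by -1.95 ± 0.34 (adjusted p = 0.00968). Saa3, an acute phase serum amyloid of tissues, went from 17.2, 34 and 51.6 to 9.17, 4.14 and 6.66 FPKM (-2.13 ± 0.37, adjusted p = 0.00901), whereas Saa1 and Saa2 differed by 0.15 and 0.59 and did not pass. The lectin Reg3g changed by -2.65, the protease inhibitor Slpi by -2.29 and the peptidoglycan receptor Pglyrp1 by -1.23. Nox1 and Wfdc2, an inhibitor-like secreted protein (1.44 ± 0.30, adjusted p = 0.0168), were the rises. The sources of hydrogen peroxide and nitric oxide Duox2 and Nos2 differed by -1.12 and -1.4 and did not pass. The number of falls was 10 with GsMTx4 1 left out and 2 with GsMTx4 2 left out, and that of rises 1 with DSS 3 left out. Slpi did not pass when GsMTx4 2 was left out (adjusted p = 0.0703), Pglyrp1 when GsMTx4 2 was left out (adjusted p = 0.0693), Wfdc2 when DSS 3 was left out (adjusted p = 0.0514), and Reg3g when Control 1, Control 2, Control 3, GsMTx4 1, GsMTx4 2 or GsMTx4 3 was left out (adjusted p = 0.0687 to 0.128). The antimicrobial and acute phase falls numbered 3 without a level filter or with the 6 libraries alone. Under another setting the calls on Reg3g, Slpi, Pglyrp1 and Wfdc2 ended (adjusted p = 0.0506 to 0.117).

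Wound-associated epithelium is the flat, migrating epithelium that covers an ulcer, and EGF receptor ligands are released there and drive epithelial growth. Of 15 tested wound markers, 5 fell and none rose (median -0.79). Plaur, the urokinase receptor, went from 9.56, 8.8 and 15.8 to 3.13, 2.63 and 2.39 FPKM (-1.70 ± 0.20, adjusted p = 0.00255), and Ly6d and Anxa1 changed by -1.98 and -0.79. Ly6d did not pass when DSS 1, DSS 2, GsMTx4 1 or GsMTx4 2 was left out (adjusted p = 0.0578 to 0.103), nor Anxa1 when any library but Control 1 or DSS 1 was left out (adjusted p = 0.0514 to 0.122). Ly6a, Clu and Krt7 differed by -0.67, -1.31 and -0.15 and did not pass. Without DSS 2 or GsMTx4 2, 3 markers fell. Of 5 tested EGF receptor ligands, 3 fell, in each fit that left out 1 library. Ereg stood at 18.2, 15.1 and 20.2 FPKM in the DSS libraries and 2.97, 1.66 and 0.989 FPKM in the GsMTx4 libraries (-2.76 ± 0.24, adjusted p = 0.000814). Areg went from 46.9, 45.5 and 27.1 to 13.1, 14 and 10.1 FPKM (-1.58 ± 0.22, adjusted p = 0.00394), and Hbegf from 10.5, 7.0 and 7.68 to 3.0, 3.24 and 1.73 FPKM (-1.37 ± 0.24, adjusted p = 0.0102). In each of the 3 ligands, the GsMTx4 libraries were well below the lowest DSS library. In Control, Ereg stood at 1.34, 1.76 and 1.35 FPKM and Areg at 13.8, 13.5 and 16 FPKM. The calls on Ly6d and Anxa1 ended in at least 1 of the other settings (adjusted p = 0.0552 to 0.0862).

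Matrix proteases cut the extracellular matrix that fibroblasts build. Each of 15 tested matrix protease and inhibitor genes had a log2 fold change below 0, and 7 fell (median -1.22). Adamts4, an aggrecan-cutting protease, stood at 7.09, 5.86 and 10.1 FPKM in the DSS libraries and 1.01, 0.998 and 0.0992 FPKM in the GsMTx4 libraries (-2.37 ± 0.28, adjusted p = 0.00236). Serpina3n, an acute phase inhibitor of serine proteases, went from 132, 221 and 265 to 57.6, 21.5 and 19.6 FPKM (-2.72 ± 0.43, adjusted p = 0.00633). The gelatinase Mmp2 changed by -1.22 ± 0.23 (adjusted p = 0.0116) and Adamts1 by -1.64 ± 0.25 (adjusted p = 0.00608). Timp1, an inhibitor of metalloproteinases, differed by -1.95 and did not pass. Of 25 tested collagen and fibroblast genes, 8 fell (median -1.01). Col18a1, a basement membrane collagen, went from 20.9, 17.1 and 31.7 to 5.96, 4.64 and 2.49 FPKM (-2.19 ± 0.28, adjusted p = 0.00278), and the interstitial collagens Col1a1 and Col1a2 changed by -1.24 and -0.98. Lum and Dcn, proteoglycans of fibroblasts, differed by 0.16 and -0.37 without passing. The number of falls among collagen and fibroblast genes was 4 with Control 1 or DSS 2 left out, 3 with Control 2 or Control 3 left out, 2 with GsMTx4 2 or GsMTx4 3 left out and 1 with DSS 3 left out, and 4 proteases and inhibitors fell without GsMTx4 2. Col1a1 did not pass when any library but GsMTx4 1 was left out (adjusted p = 0.0544 to 0.122), nor Col1a2 when any library but GsMTx4 1 was left out (adjusted p = 0.0522 to 0.108). The protease and inhibitor falls numbered 4 with a mean of 5 FPKM required. The collagen and fibroblast falls numbered 2 without a level filter, with TPM rescaling or with the replicate block and 1 with the 6 libraries alone. At least 1 other setting ended the calls on Col1a1 and Col1a2 (adjusted p = 0.0509 to 0.115).

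Each of 13 tested endothelial markers had a log2 fold change below 0, and Plvap, Esam, Eng and Tie1 fell, at -1.32, -0.88, -0.96 and -0.88 (list median -0.63). The summed level of the 16 listed markers was 82.8 to 138 FPKM in DSS, 44.0 to 67.1 FPKM with GsMTx4 and 40.5 to 57.4 FPKM in Control. Plvap, which forms the diaphragms of capillary pores, did not pass when GsMTx4 2 was left out (adjusted p = 0.055), Esam when DSS 3 or GsMTx4 2 was left out (adjusted p = 0.06 to 0.0723), Eng when Control 2, Control 3, DSS 3, GsMTx4 2 or GsMTx4 3 was left out (adjusted p = 0.0502 to 0.0889), and Tie1 when any library but DSS 2 or GsMTx4 1 was left out (adjusted p = 0.0503 to 0.12). None of 10 smooth muscle markers passed (median 0.30), and their summed level overlapped, at 228 to 870 FPKM in DSS and 566 to 739 FPKM with GsMTx4. The widest range of these markers was among the DSS libraries. Of the enteric neuron, glia and Cajal cell markers, Ano1, a chloride channel of Cajal cells that epithelium also makes, rose by 1.44 ± 0.36 (adjusted p = 0.0347), and the receptor Ret fell by 0.72 (adjusted p = 0.026). Ano1 did not pass when any library but DSS 1 was left out (adjusted p = 0.0527 to 0.0978), nor Ret when Control 2, GsMTx4 2 or GsMTx4 3 was left out (adjusted p = 0.0501 to 0.0812). The endothelial falls numbered 2 with a mean of 5 FPKM required, with TPM rescaling or with the replicate block and 1 without a level filter or with the 6 libraries alone. They numbered 2 with Control 2, Control 3 or GsMTx4 3 left out, 1 with DSS 3 left out and 0 with GsMTx4 2 left out. Of the calls named here, those on Esam, Eng, Tie1, Ano1 and Ret ended under another setting (adjusted p = 0.0501 to 0.0934).

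Absorptive colonocytes take up water, salt and short-chain fatty acids at the surface of the colon. The genes listed for them moved in both directions: of 29 tested, 8 rose and 5 fell (median -0.24). Car2, a cytosolic carbonic anhydrase, stood at 122, 85.8 and 124 FPKM in the DSS libraries and 348, 326 and 411 FPKM in the GsMTx4 libraries and rose by 1.71 ± 0.22 (adjusted p = 0.00321). Car1, another carbonic anhydrase of the colon, went the other way, from 399, 731 and 280.2 to 80.6, 85.6 and 78.4 FPKM (-2.40 ± 0.45, adjusted p = 0.012). In both enzymes the 3 GsMTx4 libraries were close together and outside the DSS range. Aqp8, a water and hydrogen peroxide channel, went from 114, 89 and 106 to 224, 327 and 493 FPKM (1.68 ± 0.32, adjusted p = 0.0118). The chloride carriers Cftr and Slc12a2 rose by 1.58 and 1.46, and the butyrate transporters Slc5a8 and Slc16a1 by 0.84 and 0.58. Slc12a2 is also counted in the stem cell and Wnt list. Krt20, Guca2a and Cdhr5, genes of mature surface epithelium, fell by 0.83, 2.18 and 0.57. The number of rises was 5 with DSS 2 or GsMTx4 3 left out, 4 with DSS 3 left out and 3 with GsMTx4 2 left out and that of falls 3 with DSS 1 or GsMTx4 2 left out and 2 with DSS 2 left out. The calls on Cftr and Slc12a2 did not hold when GsMTx4 2 was left out (adjusted p = 0.0558) and when DSS 3 was left out (adjusted p = 0.0531); Slc5a8 did not pass when DSS 2 or GsMTx4 2 was left out (adjusted p = 0.0574 to 0.087), Slc16a1 when any library but DSS 1 or GsMTx4 1 was left out (adjusted p = 0.0707 to 0.14), Krt20 when Control 2, DSS 1, DSS 2 or GsMTx4 2 was left out (adjusted p = 0.05 to 0.0798), Guca2a when DSS 2, GsMTx4 1 or GsMTx4 2 was left out (adjusted p = 0.056 to 0.0994), and Cdhr5 when any library but GsMTx4 1 was left out (adjusted p = 0.0641 to 0.134). The absorptive colonocyte rises numbered 5 with the replicate block, 4 without a level filter and 3 with the 6 libraries alone. The absorptive colonocyte falls numbered 3 with quantile normalization or with the 6 libraries alone and 2 without a level filter. Under another setting the calls on Cftr, Slc12a2, Slc5a8, Slc16a1, Krt20, Guca2a and Cdhr5 ended (adjusted p = 0.0517 to 0.132).

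Among 12 tested intestinal transcription factors, 4 rose and none fell (median 0.42). Vdr, the vitamin D receptor, went from 27.8, 21.7 and 16.3 to 54.5, 46.6 and 51.8 FPKM (1.21 ± 0.18, adjusted p = 0.00528), and Hnf4g, a regulator of enterocyte differentiation, rose by 0.91 ± 0.16 (adjusted p = 0.00871). Cdx1 and Klf5 changed by 0.74 and 0.85, and without DSS 3 or GsMTx4 2 only 2 of the 12 rose, while without GsMTx4 2 Cdx2, a further intestinal factor, fell (adjusted p = 0.0451). Cdx1 did not pass when DSS 3 or GsMTx4 2 was left out (adjusted p = 0.0562 to 0.0801), nor Klf5 when any library but Control 1, DSS 1 or GsMTx4 3 was left out (adjusted p = 0.0511 to 0.0849). Of 16 tested stem cell and Wnt genes, 3 rose and 2 fell (median 0.55). Prom1, a membrane glycoprotein of crypt cells, fell from 17.5, 35.7 and 25.7 to 2.56, 6.04 and 3.15 FPKM (-2.48 ± 0.30, adjusted p = 0.00274), and Axin2, a feedback target of Wnt signalling, went from 0.843, 0.413 and 0.814 to 1.51, 4.66 and 3.35 FPKM (1.24 ± 0.27, adjusted p = 0.0199). Slc12a2 and Rnf43 also rose (1.46 and 1.0), and Tcf7 fell by 1.06; Rnf43 did not pass when any library but DSS 1 was left out (adjusted p = 0.0732 to 0.15), nor Tcf7 when any library but DSS 2 was left out (adjusted p = 0.0651 to 0.111), nor Axin2 when DSS 2 was left out (adjusted p = 0.0563). Lgr5, Ascl2 and Olfm4, markers of crypt stem cells, did not reach the filter. Of 26 proliferation genes, 25 had a log2 fold change above 0 (median 0.52) and 1, the thymidylate synthase gene Tyms, rose (0.62 ± 0.17, adjusted p = 0.0476). This was 3.85% of the list, below the 6.99% of all tested genes that rose. Mki67 differed by 0.94 (adjusted p = 0.178). Without GsMTx4 1, 5 proliferation genes rose, and none did in the other fits that left out 1 library. The transcription factor rises numbered 2 with the 6 libraries alone. The stem cell and Wnt rises numbered 6 with quantile normalization, 1 without a level filter or with a mean of 5 FPKM required and 0 with the 6 libraries alone. They numbered 1 with DSS 2, GsMTx4 2 or GsMTx4 3 left out, and the falls of that list 1 with any library but DSS 2 left out. The calls on Cdx1, Klf5, Axin2, Rnf43, Tcf7 and Tyms ended in at least 1 of the other settings (adjusted p = 0.0509 to 0.127).

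Goblet cell genes included the rise of Reg4 and the fall of Retnlb, while the main mucus genes did not pass. Of the 19 tested, 10.5% rose and 10.5% fell. Muc2, the gel-forming mucin of the colon, stood at 222, 178 and 495 FPKM in the DSS libraries and 219.8, 184 and 35.9 FPKM in the GsMTx4 libraries (-1.24, adjusted p = 0.228), and Tff3, Zg16 and Agr2 differed by -0.44, -0.78 and -0.01. Of 19 goblet cell genes tested, the others that passed were the secretory factor Creb3l1 (0.81) and the glycosyltransferase Galnt12 (-0.76); Creb3l1 did not pass when any library but GsMTx4 3 was left out (adjusted p = 0.0636 to 0.148), nor Galnt12 when DSS 2 or DSS 3 was left out (adjusted p = 0.0683 to 0.0713). Of 8 tested enteroendocrine and tuft cell genes, each was below 0 and 3 fell, Pyy, Sct and Alox5ap, at -0.88, -1.07 and -1.0. Of 21 junction genes, 3 rose (14.3%) and 1 fell (4.76%, below the 6.15% of all tested genes that fell). Cldn15, a claudin that forms sodium channels between cells, went from 2.49, 1.76 and 3.29 to 8.37, 23 and 12.6 FPKM (2.07 ± 0.33, adjusted p = 0.0069), Ocln and Cldn12 changed by 0.92 and 0.86, and Cldn1 by -0.78. In the Nxpe and Clca families, both of which are expressed in colon epithelium, Nxpe2 and Nxpe4 rose (3.18 and 1.47). The calcium-activated chloride channel regulators Clca4a and Clca3a1 fell, from 184, 239.8 and 239 to 73.4, 56.2 and 35.7 FPKM (-2.03 ± 0.25, adjusted p = 0.00261) and by 1.36 (adjusted p = 0.014). Members of the Clca family are near copies of each other, so that the split of reads among them is uncertain. Pyy did not pass when any library but DSS 3 or GsMTx4 1 was left out (adjusted p = 0.0507 to 0.119), Sct when DSS 1, DSS 2 or GsMTx4 2 was left out (adjusted p = 0.0525 to 0.0666), Alox5ap when any library but DSS 1, GsMTx4 1 or GsMTx4 3 was left out (adjusted p = 0.0528 to 0.107), Ocln when DSS 3 was left out (adjusted p = 0.0536), Cldn12 when Control 3, DSS 1, DSS 3, GsMTx4 1 or GsMTx4 2 was left out (adjusted p = 0.0594 to 0.125), and Cldn1 when DSS 1, DSS 2, GsMTx4 2 or GsMTx4 3 was left out (adjusted p = 0.0609 to 0.0924). The enteroendocrine and tuft cell falls numbered 0 without a level filter or with the 6 libraries alone. They numbered 1 with Control 1, Control 2 or Control 3 left out and 0 with DSS 2 or GsMTx4 2 left out. At least 1 other setting ended the calls on Creb3l1, Galnt12, Pyy, Sct, Alox5ap, Ocln, Cldn12 and Cldn1 (adjusted p = 0.0504 to 0.108).

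Channels that open on stretch, among which are targets of GsMTx4, were listed together with relatives, and were sparse. A call on a listed gene is therefore not always one on a channel that opens on stretch. Only 11 of 24 listed genes reached the filter, 2 rose and 2 fell (18.2% each, median -0.33). The potassium channels Kcnk2, Kcnk4 and Kcnk10 did not reach it. Piezo2 stood at 0.356, 0.259 and 0.794 FPKM in the DSS libraries and 0.476, 0.505 and 0.336 FPKM in the GsMTx4 libraries, and Trpv4 at 1.56, 1.09 and 0.844 FPKM in the DSS libraries and 0.618, 0.558 and 0.57 FPKM in the GsMTx4 libraries; neither was tested. Kcnk6, a potassium channel with tandem pores, went from 17.8, 20.7 and 20 to 11.7, 10.4 and 5.67 FPKM (-1.05 ± 0.23, adjusted p = 0.019), and its relative Kcnk5 from 13.1, 8.75 and 11.1 to 21.1, 14.7 and 21.5 FPKM (0.74 ± 0.18, adjusted p = 0.031). Trpv2 and Tmem63a changed by -0.60 and 0.47. Kcnk6 did not pass when DSS 2 or DSS 3 was left out (adjusted p = 0.051 to 0.0551), Kcnk5 when any library but DSS 1 or GsMTx4 2 was left out (adjusted p = 0.0514 to 0.077), Trpv2 when any library but GsMTx4 1 was left out (adjusted p = 0.0519 to 0.121), and Tmem63a when any library but GsMTx4 3 was left out (adjusted p = 0.0542 to 0.102). YAP is a transcriptional co-activator that responds to cell stretch. Of 11 tested YAP targets, 2 fell (18.2%), Amotl2 and Lats2 (-1.0 and -0.64). Ccn1 and Ccn2, the targets most often read, differed by 0.14 and 0.30 without passing. Amotl2 did not pass when any library but DSS 1 or GsMTx4 1 was left out (adjusted p = 0.0654 to 0.133), nor Lats2 when any library but DSS 2 was left out (adjusted p = 0.0619 to 0.124). Of 14 immediate early genes, 5 fell, and Klf2, a flow-responsive factor of endothelium, did so by 1.35 (adjusted p = 0.0135) in each fit that left out 1 library; without GsMTx4 2 it was the only fall. Junb, Ier3, Zfp36 and Dusp1 changed by -0.73, -0.95, -0.59 and -1.44, and Fos by 0.12 without passing. The immediate early falls numbered 1 with the 6 libraries alone. Of the calls named here, those on Kcnk6, Kcnk5, Trpv2, Tmem63a, Amotl2, Lats2, Klf2, Ier3, Zfp36 and Dusp1 ended under another setting (adjusted p = 0.0504 to 0.118).

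Lipid synthesis was the metabolic list with the most calls by number, with 51.6% of its tested genes higher and 3.23% lower. In the shorter sulfur amino acid list below, 50% were higher and 10% lower. Of all tested genes, 6.99% rose and 6.15% fell. Cells make cholesterol from acetyl-CoA through mevalonate and fatty acids from malonyl-CoA, and SREBP factors raise the genes of both routes when sterols are scarce. Of 31 tested genes, 16 rose and 1 fell, with a median of 0.76 against 0.06 for all genes. At the source of acetyl-CoA, Acly went from 35.9, 23.6 and 29.2 to 94, 99.8 and 84.8 FPKM (1.64 ± 0.18, adjusted p = 0.0018) and Acss2 from 3.39, 2.74 and 2.44 to 11.1, 13.9 and 15.3 FPKM (1.90 ± 0.15, adjusted p = 0.000446). Of the desaturases, Fads2 stood at 48.9, 40.9 and 44.8 FPKM in the DSS libraries and 148, 139 and 133 FPKM in the GsMTx4 libraries (1.62 ± 0.14, adjusted p = 0.000859), beside Scd2 above. In these 3 genes and Scd2 the 2 groups were far apart relative to the spread within either. Along the mevalonate route, Hmgcs1 went from 44.3, 56 and 31.2 to 95, 91.5 and 80.8 FPKM (1.04 ± 0.21, adjusted p = 0.0149), and Idi1, Nsdhl, Lss and Cyp51 rose by 1.07, 0.95, 0.88 and 0.86. The elongase Elovl6 fell, from 5.62, 5.71 and 8.61 to 3.51, 3.71 and 3.03 FPKM (-0.77 ± 0.17, adjusted p = 0.0191). In Control, Scd2 stood at 76.1, 36.5 and 27.5 FPKM, Fads2 at 161, 127 and 134 FPKM and Acss2 at 13.9, 14.6 and 14.2 FPKM. The number of rises was 8 with DSS 3 left out and 5 with GsMTx4 2 left out; Hmgcs1 did not pass when GsMTx4 2 was left out (adjusted p = 0.0579), Elovl6 when GsMTx4 2 was left out (adjusted p = 0.0515), Idi1 when DSS 1, DSS 3 or GsMTx4 2 was left out (adjusted p = 0.0519 to 0.0799), Nsdhl when DSS 3 or GsMTx4 2 was left out (adjusted p = 0.0531 to 0.0598), Lss when any library but GsMTx4 3 was left out (adjusted p = 0.054 to 0.116), and Cyp51 when any library but Control 3, DSS 2 or GsMTx4 3 was left out (adjusted p = 0.0512 to 0.117). The lipid synthesis rises numbered 9 with the 6 libraries alone. Under another setting the calls on Hmgcs1, Idi1, Lss, Cyp51 and Elovl6 ended (adjusted p = 0.0526 to 0.0919).

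The promoter of Hmgcs1 (chr13:119690101-119690350, plus strand, RefSeq on GRCm38.p6) is shown because it was the only one of 13 rising genes of this list with sequence to hold the sterol element TCACNCCAC, searched on both strands. The element was in 0.946% of all tested promoters. The match, in capitals, lies 137 to 129 bases before the start.
Hmgcs1: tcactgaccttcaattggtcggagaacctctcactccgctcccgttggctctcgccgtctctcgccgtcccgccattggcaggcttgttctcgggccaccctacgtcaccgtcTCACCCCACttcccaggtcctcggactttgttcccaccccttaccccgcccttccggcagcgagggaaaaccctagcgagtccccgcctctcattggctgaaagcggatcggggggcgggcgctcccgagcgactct

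**Figure D4:**
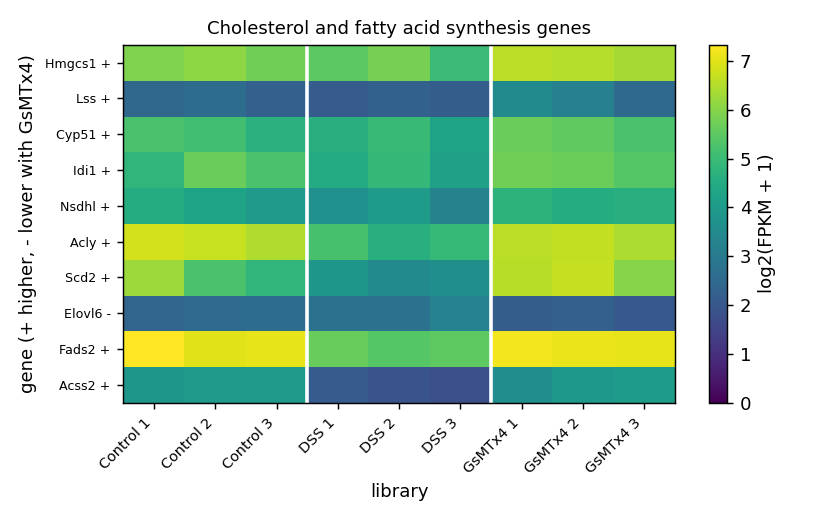
Colour gives log2(FPKM + 1) of 10 cholesterol and fatty acid synthesis genes named in the text (rows) in each of the 9 libraries (columns, split by group), with + and - marking rises and falls. The cells of Scd2, Fads2, Acss2 and Acly are darker in the 3 DSS columns than in the other 6, and Elovl6 is the only gene marked as a fall.

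Of 26 tested conjugation and detoxification genes, whose enzymes clear foreign compounds, 9 rose and none fell (median 0.61). The glutathione transferase Gstm3 stood at 2.36, 1.32 and 1.37 FPKM in the DSS libraries and 11.4, 20.1 and 12.6 FPKM in the GsMTx4 libraries (2.53 ± 0.23, adjusted p = 0.000859), and Gstm1 went from 21.2, 21.6 and 25.3 to 55.9, 85.8 and 88.8 FPKM (1.69 ± 0.20, adjusted p = 0.00226). The glucuronyl transferase Ugt2b34 and the sulfotransferases Sult1a1 and Sult1c2 rose by 1.59, 1.84 and 1.01. These 5 calls, with that on Cyp2c68, held in each fit that left out 1 library. Of 10 sulfur amino acid genes, 5 rose and 1 fell (median 0.77). Besides Cdo1, Cth, which makes cysteine and hydrogen sulfide, went from 8.24, 7.7 and 6.34 to 14.4, 21.7 and 24.7 FPKM (1.31 ± 0.20, adjusted p = 0.00586), and Tst, a mitochondrial sulfide-detoxifying enzyme, from 17, 11.6 and 10.4 to 26.3, 31.1 and 40.9 FPKM (1.28 ± 0.21, adjusted p = 0.00683). Csad and Cbs changed by 0.98 and 1.49, and Ethe1, which oxidises persulfides, by -0.50, and the last did not pass when any library was left out (adjusted p = 0.0588 to 0.102). Without GsMTx4 2, 3 sulfur genes rose, and Csad did not pass when DSS 2, DSS 3 or GsMTx4 2 was left out (adjusted p = 0.0618 to 0.0735). The calls on Sult1c2, Csad and Ethe1 ended in at least 1 of the other settings (adjusted p = 0.0537 to 0.123).

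Of 21 fatty acid oxidation and ketogenesis genes, 5 rose and 2 fell: Hadh, Ehhadh, Bdh1 and Acadm, enzymes of that route, rose by 1.09, 1.13, 1.14 and 0.66, and the co-activator Ppargc1a by 1.28 (adjusted p = 0.0013 to 0.00899). These 5 held in each fit that left out 1 library. Angptl4, a secreted inhibitor of lipoprotein lipase, and Acadl fell by 1.86 and 0.94. Of 25 nuclear genes of oxidative phosphorylation, 6 rose (median 0.43), among them Ndufs1 of complex I at 0.75 ± 0.13 (adjusted p = 0.009); the number was 3 with Control 2 left out, 2 with DSS 1 or DSS 3 left out and 1 with GsMTx4 2 left out. The 13 mitochondrially encoded mRNAs, none of which passed (median 0.56), summed to 32395 to 48421 FPKM in DSS and 49836 to 77232 FPKM with GsMTx4. Of 24 hypoxia and glycolysis genes, 4 fell (median -0.41), and the glucose transporter Slc2a1 did so by 0.85 (adjusted p = 0.00677). The others were Adm, P4ha1 and Ddit4, at -0.82, -0.88 and -1.13, and the number of falls was 2 with DSS 1 or DSS 2 left out and 1 with GsMTx4 2 left out. P4ha1 did not pass when any library but Control 1, DSS 1 or GsMTx4 1 was left out (adjusted p = 0.0524 to 0.127), Adm when DSS 1 or GsMTx4 2 was left out (adjusted p = 0.0518 to 0.0635), and Ddit4 when DSS 1, DSS 2 or GsMTx4 2 was left out (adjusted p = 0.0504 to 0.064). Acadl did not pass when any library but DSS 3 or GsMTx4 1 was left out (adjusted p = 0.0554 to 0.0978). The oxidative phosphorylation rises numbered 12 with quantile normalization, 3 without a level filter or with TPM rescaling, 2 with median-of-ratios scaling and 1 with the 6 libraries alone or with the replicate block. The hypoxia and glycolysis falls numbered 1 with the 6 libraries alone. At least 1 other setting ended the calls on Acadm, Acadl, Adm, P4ha1 and Ddit4 (adjusted p = 0.0523 to 0.103).

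Of 21 genes of the unfolded protein and stress response, 20 had a log2 fold change below 0 and 6 fell (median -0.43), among them Sdf2l1, Creld2 and Manf, products of the stressed endoplasmic reticulum, at -0.89, -0.93 and -0.78. The number of falls was 3 with Control 1, Control 2, Control 3, DSS 3 or GsMTx4 3 left out and 0 with GsMTx4 2 left out, and Sdf2l1, Creld2 and Manf did not pass without GsMTx4 2 (adjusted p = 0.0571 to 0.0579). Nrf2 targets were split: the heme oxygenase Hmox1 fell from 16.3, 16.3 and 19.6 to 7.56, 6.56 and 5.5 FPKM (-1.29 ± 0.14, adjusted p = 0.00191), Srxn1 fell by 0.84, and Nqo1 rose by 1.21, while 8 others did not pass. In the retinoid list 3 of 10 genes fell: Aldh1a3, which makes retinoic acid, fell from 13.6, 16.5 and 16.8 to 3.43, 1.79 and 2.12 FPKM (-2.29 ± 0.20, adjusted p = 0.000859), as did Dhrs9 above, and Rdh16 changed by -0.91. In the prostaglandin list Ptges, a synthase of prostaglandin E, fell by 0.99 (adjusted p = 0.0175), Ptgr1 and Ptges2 rose by 1.05 and 0.72, and Ptgs2, the inducible cyclooxygenase, differed by -0.76 without passing. Nqo1 did not pass when DSS 2 or DSS 3 was left out (adjusted p = 0.0562 to 0.0583), Rdh16 when any library but GsMTx4 1 was left out (adjusted p = 0.0578 to 0.127), and Ptges when DSS 1, DSS 3 or GsMTx4 2 was left out (adjusted p = 0.0508 to 0.0684). The stress response falls numbered 3 without a level filter, with TPM rescaling or with the replicate block and 2 with the 6 libraries alone. Of the calls named here, those on Creld2, Nqo1, Rdh16 and Ptges ended under another setting (adjusted p = 0.0507 to 0.0995).

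Clock genes moved in both directions. The circadian clock is a loop in which Arntl and Clock drive the Per, Cry and Nr1d genes and the output factor Dbp. The Nr1d products in turn hold Arntl and Npas2 down, so that the sets peak at different times of day. Of 15 tested genes, 5 rose and 2 fell (median 0.94). Dbp stood at 3.62, 2.72 and 1.68 FPKM in the DSS libraries and 16, 13.2 and 20.9 FPKM in the GsMTx4 libraries and at 2.63, 1.97 and 2.98 FPKM in Control, a change of 2.28 ± 0.23 (adjusted p = 0.00145). Nr1d2 went from 8.36, 5.77 and 5.62 to 17.4, 19.8 and 19.2 FPKM (1.40 ± 0.16, adjusted p = 0.00197), and Per3 from 1.49, 0.717 and 0.941 to 6.87, 5.09 and 4.33 FPKM (1.65 ± 0.22, adjusted p = 0.0033). In each of these the 3 GsMTx4 libraries were alike and clearly above both DSS and, for Dbp, Control. On the opposite arm, Arntl fell from 4.1, 6.2 and 6.55 to 1.86, 2.03 and 3.45 FPKM (-0.95 ± 0.22, adjusted p = 0.0266) and Npas2 by 0.84, while Clock, the partner of Arntl, rose by 1.05 ± 0.20 (adjusted p = 0.0112). Per1, Per2, Cry1 and Nr1d1 differed by -0.40, 1.08, -0.86 and 0.94 and did not pass. The labels give no hour of death, so that the time of day of each group is unknown, and its part in the result was not tested. Arntl did not pass when DSS 2, DSS 3, GsMTx4 1 or GsMTx4 2 was left out (adjusted p = 0.0611 to 0.0989), nor Npas2 when any library but Control 1, DSS 1 or GsMTx4 1 was left out (adjusted p = 0.0538 to 0.0865); Dbp, Nr1d2, Per3 and Clock passed in each fit that left out 1 library. The circadian clock rises numbered 3 with a mean of 5 FPKM required. Under another setting the calls on Arntl and Npas2 ended (adjusted p = 0.0555 to 0.0903).

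Dbp and its relatives bind the D-box, searched here as TTANGTAA on both strands. It was in 1.27% of all tested promoters, in that of Per3 alone among 5 rising clock genes with sequence, and in that of Alb alone among 17 plasma protein genes with sequence. Both promoters (Per3, chr4:151044666-151044915, minus strand; Alb, chr5:90460620-90460869, plus strand; RefSeq on GRCm38.p6) are shown because each held 2 matches, in capitals. Those of Per3 lie 205 to 198 and 158 to 151 bases before the start, and those of Alb 223 to 216 and, on the other strand, 204 to 197 bases before it.
Per3: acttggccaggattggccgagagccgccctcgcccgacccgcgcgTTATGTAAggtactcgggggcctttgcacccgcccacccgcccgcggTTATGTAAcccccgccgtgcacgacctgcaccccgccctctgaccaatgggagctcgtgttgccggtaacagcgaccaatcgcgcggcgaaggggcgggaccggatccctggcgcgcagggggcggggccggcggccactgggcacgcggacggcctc
Alb: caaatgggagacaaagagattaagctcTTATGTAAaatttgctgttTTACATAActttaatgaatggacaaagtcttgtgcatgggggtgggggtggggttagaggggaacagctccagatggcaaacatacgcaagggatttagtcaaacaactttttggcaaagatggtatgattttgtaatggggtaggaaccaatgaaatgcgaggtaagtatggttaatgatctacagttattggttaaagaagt

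Glucocorticoids, which follow the time of day and stress, act on a set of target genes of which 10 were tested and 4 fell (median -0.83). Sgk1, a kinase that raises sodium uptake, stood at 22.6, 27.2 and 10.8 FPKM in the DSS libraries and 3.33, 3.23 and 3.75 FPKM in the GsMTx4 libraries (-2.16 ± 0.33, adjusted p = 0.00553), with the 3 GsMTx4 libraries nearly equal. Fkbp5, a chaperone that damps the receptor, went from 20.9, 28 and 15 to 9.22, 7.17 and 5.6 FPKM (-1.40 ± 0.28, adjusted p = 0.0141). Dusp1 and Hsd11b1 changed by -1.44 and -0.97. Tsc22d3 differed by -0.90 without passing. The number of falls was 2 with Control 2, Control 3, DSS 2, DSS 3 or GsMTx4 1 left out and 1 with GsMTx4 2 left out. Fkbp5 did not pass when GsMTx4 2 was left out (adjusted p = 0.0534), Dusp1 when any library but GsMTx4 3 was left out (adjusted p = 0.0519 to 0.107), and Hsd11b1 when any library but Control 1 or DSS 1 was left out (adjusted p = 0.0536 to 0.107). The glucocorticoid response falls numbered 2 without a level filter or with the 6 libraries alone. The call on Hsd11b1 ended in at least 1 of the other settings (adjusted p = 0.0633 to 0.093).

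Plasma proteins are made in the liver, and their transcripts are low in colon. Of 26 listed, 23 were tested and 22 rose. This count carries no weight as support, since 17 of the 23 had no DSS library at 1 FPKM and passed the filter only through the group in which they were high. Of the 6 with a library at 1 FPKM or more in both groups, 5 rose. The number of rises was 4 with GsMTx4 3 left out and 3 with GsMTx4 1 or GsMTx4 2 left out. Ttr, the carrier of thyroid hormone, went from 3.04, 5.19 and 2.08 to 9.7, 15.8 and 24.9 FPKM (1.98 ± 0.33, adjusted p = 0.00812) and stood at 24.5, 19.1 and 20.9 FPKM in Control. Apoa2, an apolipoprotein of high-density lipoprotein, went from 0.668, 1.09 and 0.616 to 7.55, 10.1 and 7.23 FPKM (2.37 ± 0.17, adjusted p = 0.00034). Trf, transferrin, which other tissues make as well, differed by 0.07 (adjusted p = 0.88). The plasma protein rises numbered 2 with a mean of 5 FPKM required.

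The vitamin D carrier Gc was listed at 0 in the 3 DSS libraries and stood at 1.91, 2.24 and 2.23 FPKM with GsMTx4, and Ahsg, fetuin-A, was likewise listed at 0 in DSS and stood at 2.37, 2.55 and 2.02 FPKM. The 26 genes summed to 23.2, 28.1 and 29.3 FPKM in DSS, 99.2, 128 and 133 FPKM with GsMTx4, and 55.9, 37.7 and 38.1 FPKM in Control. The GsMTx4 libraries were therefore alike, and above all 6 other libraries. Alb, at 13.2, 14.4 and 14.6 FPKM, and Mup20, a major urinary protein, at 4.19, 4.5 and 3.25 FPKM, showed the same small spread within the group. The Serpina1 and Mup genes are near copies of each other, so that their single values are uncertain. The part of RNA from hepatocytes in these values was not tested.

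**Figure D5:**
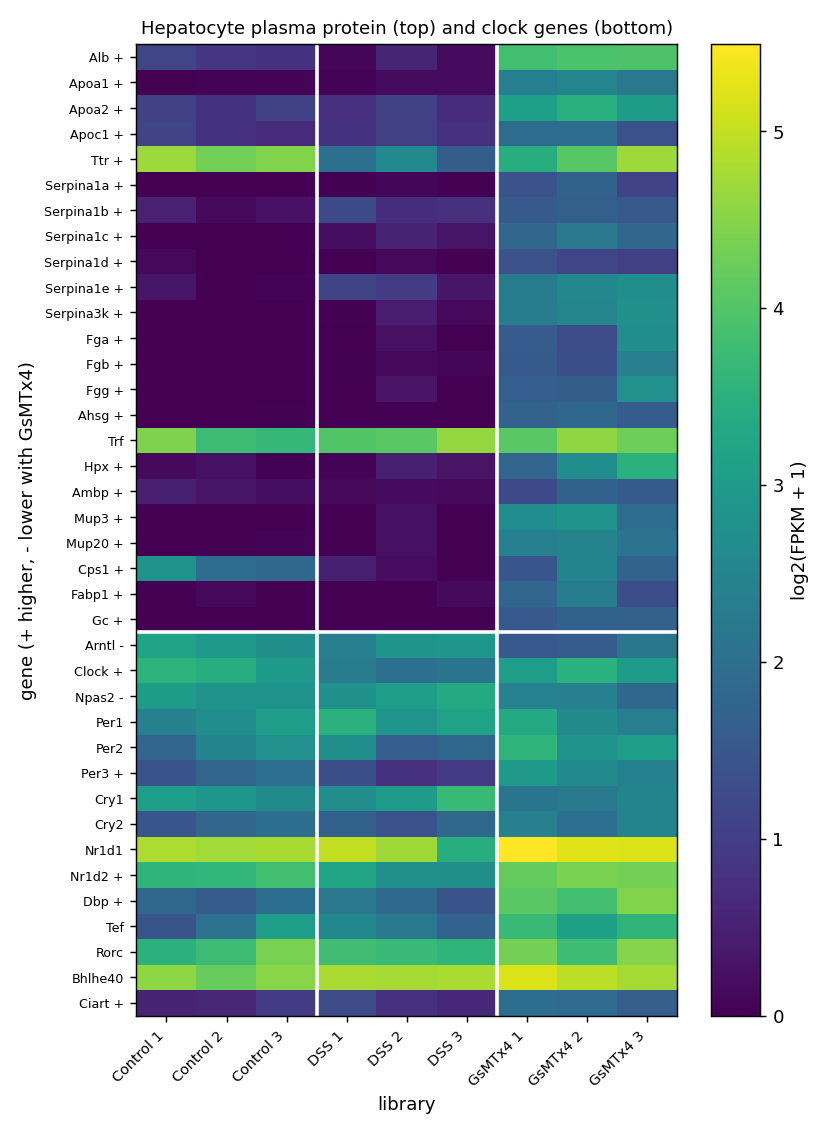
Colour gives log2(FPKM + 1) of the 23 tested plasma protein genes (above the line) and the 15 tested clock genes (below it) in each of the 9 libraries, split by group, with + and - marking rises and falls. Most plasma protein rows are near 0 in the DSS columns and lighter in the 3 GsMTx4 columns, Trf is light in all columns, and Dbp is lightest with GsMTx4.

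Other tissues that a piece of colon can carry were checked by their markers. Of 10 adipocyte markers 5 were tested and 3 fell, Fabp4 from 11.6, 10.3 and 10.1 to 3.95, 2.87 and 4.42 FPKM (-1.31 ± 0.19, adjusted p = 0.00483) and Cidec and Lpl by 1.54 and 0.96. The list summed to 17.1 to 50.1 FPKM in DSS, 6.30 to 11.7 FPKM with GsMTx4 and 4.03 to 14.3 FPKM in Control, and the defining marker Adipoq did not reach the filter. Lpl did not pass when GsMTx4 2 or GsMTx4 3 was left out (adjusted p = 0.0668 to 0.0781). Hba-a2, an alpha globin gene of red blood cells, changed by -1.63 ± 0.45 (adjusted p = 0.0454), the only one of 4 tested to pass, while all 4 fell when DSS 3 was left out, and the 7 red blood cell genes summed to 17.9 to 78.6 FPKM in DSS and 12.5 to 16.8 FPKM with GsMTx4. Both marker sums were thus lower in each GsMTx4 library than in each DSS library, and their part in the falls above was not tested. Of 7 pancreatic acinar markers, Cela1 alone was tested and rose (1.83 ± 0.23, adjusted p = 0.00274), and no other exceeded 0.348 FPKM in any of the 6 libraries. Skeletal muscle and squamous epithelium lists held no call. Of 6 tested genes that mark position along the colon, all 6 had a log2 fold change above 0 (median 1.04). Hoxa13 rose (0.44 ± 0.12, adjusted p = 0.0473), and Hoxb13 differed by 1.12 without passing. The 9 listed position genes summed to 83.5 to 194 FPKM in DSS and 222 to 365 FPKM with GsMTx4, without overlap. In Control they summed to 197 to 283 FPKM. A shift of the sampled position along the colon, and its part in the epithelial results, was not tested. Hba-a2 did not pass when Control 3, DSS 1, DSS 2, GsMTx4 2 or GsMTx4 3 was left out (adjusted p = 0.0713 to 0.149), nor Hoxa13 when any library was left out (adjusted p = 0.0598 to 0.129). The adipocyte falls numbered 1 with a mean of 5 FPKM required. At least 1 other setting ended the calls on Lpl, Hba-a2 and Hoxa13 (adjusted p = 0.0507 to 0.143).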

How the data were processed

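Total RNA from the colon was extracted with Trizol and sequenced on an Illumina instrument, per the labels' protocols. The authors deposited 1 table of FPKM values for 35315 genes in 9 libraries. Reads were trimmed with cutadapt, inspected with FastQC and placed on GRCm38, per the submitters' processing notes. For the alignment and the FPKM step the program is not given in the sources used here. Since FPKM is divided by length and library size, the depth of each library is unknown. The values of 99.2% of the 9232 genes with 1 transcript had at most 6 decimals, against 0.665% of the 12630 genes with at least 3 transcripts, so a gene's FPKM may be an average over its transcripts.

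Values were taken to log2(FPKM + 1). The 9 libraries were fitted in limma 3.58.1 (R 4.3.3) by group means with a trended empirical Bayes step, on 6 residual degrees of freedom, and the contrast GsMTx4 minus DSS was tested two-sided on 13669 genes, with Benjamini-Hochberg adjustment over all of them and a threshold of 0.05. The Control libraries served only to estimate the spread. The script was tested on simulated data. An exact permutation test of 3 against 3 cannot go below p = 0.1 and was not used. Groups and replicate numbers came from the sample titles. Symbols and positions came from GENCODE M21, and promoter sequences from RefSeq (9512 of the tested genes matched). Python 3.11.15 and matplotlib 3.10.9 drew the figures.

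The members, the 51 gene lists and the tests were chosen with earlier results of these data known. The rule for named genes took the 8 largest changes in each direction among genes that passed, had no overlap between groups and averaged at least 5 FPKM in the higher group, without predicted genes, pseudogenes and receptor segments. It also took the 2 smallest p-values of each list, all calls of lists with up to 5 calls, and Piezo1, Piezo2, Trpv4, Il1b, Il6, Tnf, Il22, Cxcl1, Cxcl5, S100a8, S100a9 and Alb. Other named genes were chosen after their values were seen, and some genes under these rules are not reported here. The alternatives were another pseudocount, other filters and scalings, other settings of limma, the 6 libraries alone, a replicate block, and each library left out in turn.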

Additional observations from a re-analysis of the deposited data

How the results depend on the processing

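Against 956 rises and 840 falls, no filter on low values gave 624 and 520, and a filter on a mean of 5 FPKM gave 509 falls. The DSS and GsMTx4 libraries alone, with fewer residual degrees of freedom and without the more uniform Control libraries, gave 355 and 278. Leaving out 1 library gave 334 to 1071 rises and 320 to 767 falls. Another pseudocount, the filter over 9 libraries, quantile normalization, TPM rescaling, median-of-ratios scaling and both other empirical Bayes settings kept both counts within 1.5 times. No scaling moved the median of all genes by more than 0.1.

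With the replicate number as a block, 550 genes rose and 540 fell. Same-numbered libraries deviated from their group means with correlations of 0.101, -0.251 and -0.129, and differently numbered ones with -0.191 to 0.326. Deviations from a mean of 3 libraries are tied to each other, so these values cannot settle whether the numbers pair the samples.

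Among named genes the sign of 4 differences that had not passed turned when 1 library was left out. The log2 fold change of Actg2 ran from -0.0658 (without DSS 1) to 0.996, that of Acta1 from -0.18 (without DSS 2; -0.0124 without DSS 1) to 1.05 (without DSS 3, where it passed), that of Tnni2 from -0.42 to 0.24 (without DSS 1; 0.13 without GsMTx4 3), and that of Tnf from -0.64 to 0.0439 (without DSS 3). The cause was not tested. Depth is unknown, and 3 libraries per group limit the precision.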

Other observations

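Outside the lists, 849 of 12894 tested genes rose and 715 fell, where 6.99% of all tested genes rose and 6.15% fell. The genes of this paragraph were chosen from the largest changes outside the lists after their values were seen. Mptx1, a mucosal pentraxin, stood at 77.7, 87 and 199.6 FPKM in DSS and 333, 1062 and 892 FPKM with GsMTx4 (2.61 ± 0.50, adjusted p = 0.0131). Adh1, an alcohol dehydrogenase that also oxidises retinol, stood at 116, 125 and 46 FPKM in DSS and 396, 423 and 616 FPKM with GsMTx4 (2.41 ± 0.36, adjusted p = 0.00515), and Selenbp1, a methanethiol oxidase of the sulfur route, at 88.1, 90.9 and 67.1 FPKM in DSS and 241, 295 and 625 FPKM with GsMTx4 (2.11 ± 0.34, adjusted p = 0.00686). Gsta3, a glutathione transferase, was at 0.976, 0.506 and 0.473 FPKM in DSS and 5.33, 9.7 and 8.06 FPKM with GsMTx4 (2.38 ± 0.20, adjusted p = 0.000814). In each of these genes the lowest GsMTx4 library was above the highest DSS library. The groups did not overlap in 1793 of the 1796 calls, so that this separation comes from the choice. Among the falls, Tgm2, a transglutaminase that links matrix proteins, stood at 68.9, 119 and 113 FPKM in DSS and 26.5, 19.4 and 22 FPKM with GsMTx4 (-2.07 ± 0.23, adjusted p = 0.0018). The membrane-anchored serine protease genes Prss22 and Prss27 fell together: Prss27 stood at 12.5, 14.1 and 8.23 FPKM in DSS and 1.61, 1.12 and 0.263 FPKM with GsMTx4 (-2.69 ± 0.27, adjusted p = 0.00145), and Prss22 at 5.17, 12 and 4.53 FPKM in DSS, with 0.132, 0 and 0 FPKM with GsMTx4. Tac1, which encodes substance P of sensory and enteric neurons, stood at 95, 79.5 and 60.5 FPKM in DSS and 29.9, 19.5 and 2.41 FPKM with GsMTx4 (-2.60 ± 0.67, adjusted p = 0.0357). Lpcat4, an enzyme that remodels phospholipids, was at 13.9, 13.5 and 12.2 FPKM in DSS and 3.18, 2.47 and 1.89 FPKM with GsMTx4 (-2.03 ± 0.16, adjusted p = 0.000446). Mptx1 did not pass when GsMTx4 2 was left out (adjusted p = 0.0561). Gsta3 fell below the level filter when a GsMTx4 library was left out. Prss22 fell below the level filter when a DSS library was left out. Tac1 did not pass when any library but GsMTx4 1 or GsMTx4 3 was left out (adjusted p = 0.0555 to 0.0851). Nor did it under 3 of the 11 other settings (adjusted p = 0.0585 to 0.0929).

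Antibody genes are assembled from segments, each a gene model of its own. Of 181 tested immunoglobulin variable segments, 27 fell and 1 rose, with a median log2 fold change of -1.17, and of 11 constant segments 4 fell, with a median of -1.42. Of 37 tested T cell receptor segments, 4 fell, with a median of -0.39. The segments are near copies of each other and share cells of origin, so they are not independent, and reads can be split among them. Among pseudogenes 59 of 920 rose and 20 fell (median 0.21), where 6.99% of all tested genes rose and 6.15% fell. Reads in pseudogenes cannot be told apart from those of the parent genes.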
